A study of Mus musculus with 6 samples.

Results

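Cyclins, cyclin-dependent kinases (CDKs), CDK inhibitors and CDC25 phosphatases were compared between 2 sorted populations of mouse spermatogonia, the undifferentiated β-2M-SPα-6+c-kit- cells (c-kit- cells below) and the differentiating β-2M-SPα-6+c-kit+ cells (c-kit+ cells). Both populations were sorted from testes of FVB/N mice, adults of 2 to 3 months with no transgene or treatment in the records, after bead enrichment for α-6 integrin and staining with Hoechst dye and antibodies to β-2 microglobulin and c-kit. Each of the 3 arrays of a population held RNA of 10000 cells of 1 mouse, amplified before hybridization to a Mouse Gene 2.0 ST array, and whether 1 mouse gave both populations was not stated. The genes were chosen by symbol from the 24973 genes of the table: Ccn followed by one of the letters a, b, c, d, e, f, g, h, k, l or t and a digit, Cdk followed by a number only, symbols that start with Cdkn1 or Cdkn2, and Ccnf, Ccnh, Ccnk, Cdc25a, Cdc25b and Cdc25c. This gave 52 genes, of which 4 were set apart as matches by symbol alone: Ccnb1-ps, a pseudogene of cyclin B1, Ccnb1ip1, a ubiquitin ligase of meiotic crossing over, and Cdkn2aip and Cdkn2aipnl, which are not CDK inhibitors. Cdk3, also a pseudogene in the gene table, was kept among the CDKs. Values are the authors' log2 expression values, and a difference of 1 on this scale is a doubling. Fold changes are c-kit- minus c-kit+ and were tested with limma over all 24973 genes, and a gene was called at a Benjamini-Hochberg adjusted p under 0.05.

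Most CDKs are kinases that act when bound to a cyclin, and in the cell cycle the cyclin bound changes from phase to phase. D-type cyclins with CDK4 or CDK6 and then E-type cyclins with CDK2 phosphorylate the retinoblastoma proteins in G1, which frees E2F factors to switch on the genes of DNA replication. A-type cyclins act in S phase and G2, and B-type cyclins with CDK1 drive entry into mitosis. The CIP/KIP and INK4 inhibitors hold these kinases back, and CDC25 phosphatases remove the phosphates that silence them. In the testis, undifferentiated spermatogonia divide slowly, and after c-kit appears the differentiating cells pass through a series of divisions before meiosis.

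Markers of the sorted populations were read first. Kit itself was at 6.07, 6.35 and 6.03 on the c-kit- arrays and at 9.84, 9.85 and 9.69 on the c-kit+ arrays. The mean of 18 markers of undifferentiated spermatogonia was 7.88 to 8.06 in c-kit- cells and 5.96 to 6.21 in c-kit+ cells. Of these, 17 were called as higher in c-kit- cells and Pax7 was not called. The mean of 12 markers of differentiating spermatogonia was 7.41 to 7.55 in c-kit- cells and 9.22 to 9.31 in c-kit+ cells. Of these, 9 were lower in c-kit- cells, Sohlh2 and Dnmt3b were not called, and Sohlh1 was higher (log2 fold change 0.65, adjusted p = 0.0281 from limma). The differentiating list includes Kit, and both lists were chosen with earlier results of these data known. Their means are thus not an independent check of the sort. Spermatid markers averaged 9.09 to 9.63 in c-kit- cells, against 9.25 to 9.46 in c-kit+ cells, and none of the 10 was called by limma, at an unadjusted p under 0.05 or with a variance for each gene alone. Markers of Sertoli, Leydig and peritubular myoid cells averaged between 3.69 and 6.08 on the c-kit- and between 3.83 and 6.26 on the c-kit+ arrays, with Tagln and Mylk of the myoid list called as lower in c-kit- cells and none of the other lists, where 1 gene, Inha, had an unadjusted p under 0.05. Of 8 endothelial markers, 4 were higher in c-kit- cells, at list means of 4.86 to 5.01 against 4.33 to 4.47 in c-kit+ cells. The 14 leukocyte markers measured averaged 5.14 to 5.44 on the c-kit- arrays and 6.51, 6.21 and 5.26 on c-kit+ replicates 1, 2 and 3. Of these, 3 were lower in c-kit- cells (log2 fold changes of -1.79 for Cd74, -1.45 for H2-Ab1 and -0.72 for C1qb) and 7 had an unadjusted p under 0.05, all as lower. Ptprc, which defines leukocytes, was not called, at 3.43 to 3.47 on the c-kit- arrays and 3.62 to 4.15 on the c-kit+ arrays. The part of other cells in the results below was not tested. Without c-kit+ replicates 1 and 2, the arrays with the higher leukocyte values, all 21 called cyclin, CDK, inhibitor and CDC25 genes described below kept their direction. This leaves 1 c-kit+ array, so only the sizes of change are compared here. The log2 fold change was then -1.30 for Ccnd1, beside -1.10 with all arrays, and 2.97 for Cdkn1b, beside 2.70. It was closer to no change for Ccnb3, at -0.27 beside -0.69, and for Cdkn1c, at 0.44 beside 0.72. In sorted pools, fewer cells of a type and less RNA per cell cannot be told apart.

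Of the 52 genes, 10 were higher in c-kit- cells, 11 were lower and 31 did not pass the test. Over all genes tested, 18.1% were called, 9.33% as higher and 8.79% as lower in c-kit- cells. Of the 52 genes, 50 had a mean value above the median of all genes, and 21 of these 50 were called, against 30.4% of all genes above that median. The 3 c-kit- arrays lay wholly above the 3 c-kit+ arrays for 10 of the 52 genes and wholly below for 17, so 27 did not overlap, where over all genes this held for 15.9% above, 19.1% below and 35.1% in all. At the study's thresholds (over 1.5-fold with p under 0.02 before adjustment), 7 of the 52 were above and 8 below their c-kit+ level, against 12.9% of all genes. The median log2 fold change of the 52 genes was -0.06, beside -0.04 over all genes. The median size of the change was 0.32 on the log2 scale for the 52 genes and 0.19 over all genes. Apart from the 30.4% above, the shares and medians over all genes were not matched for level. For every gene whose groups did not overlap, the two-sided exact permutation test gave p = 0.1, the smallest that 3 arrays against 3 allow, so single genes rest on limma.

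**Figure D1:**
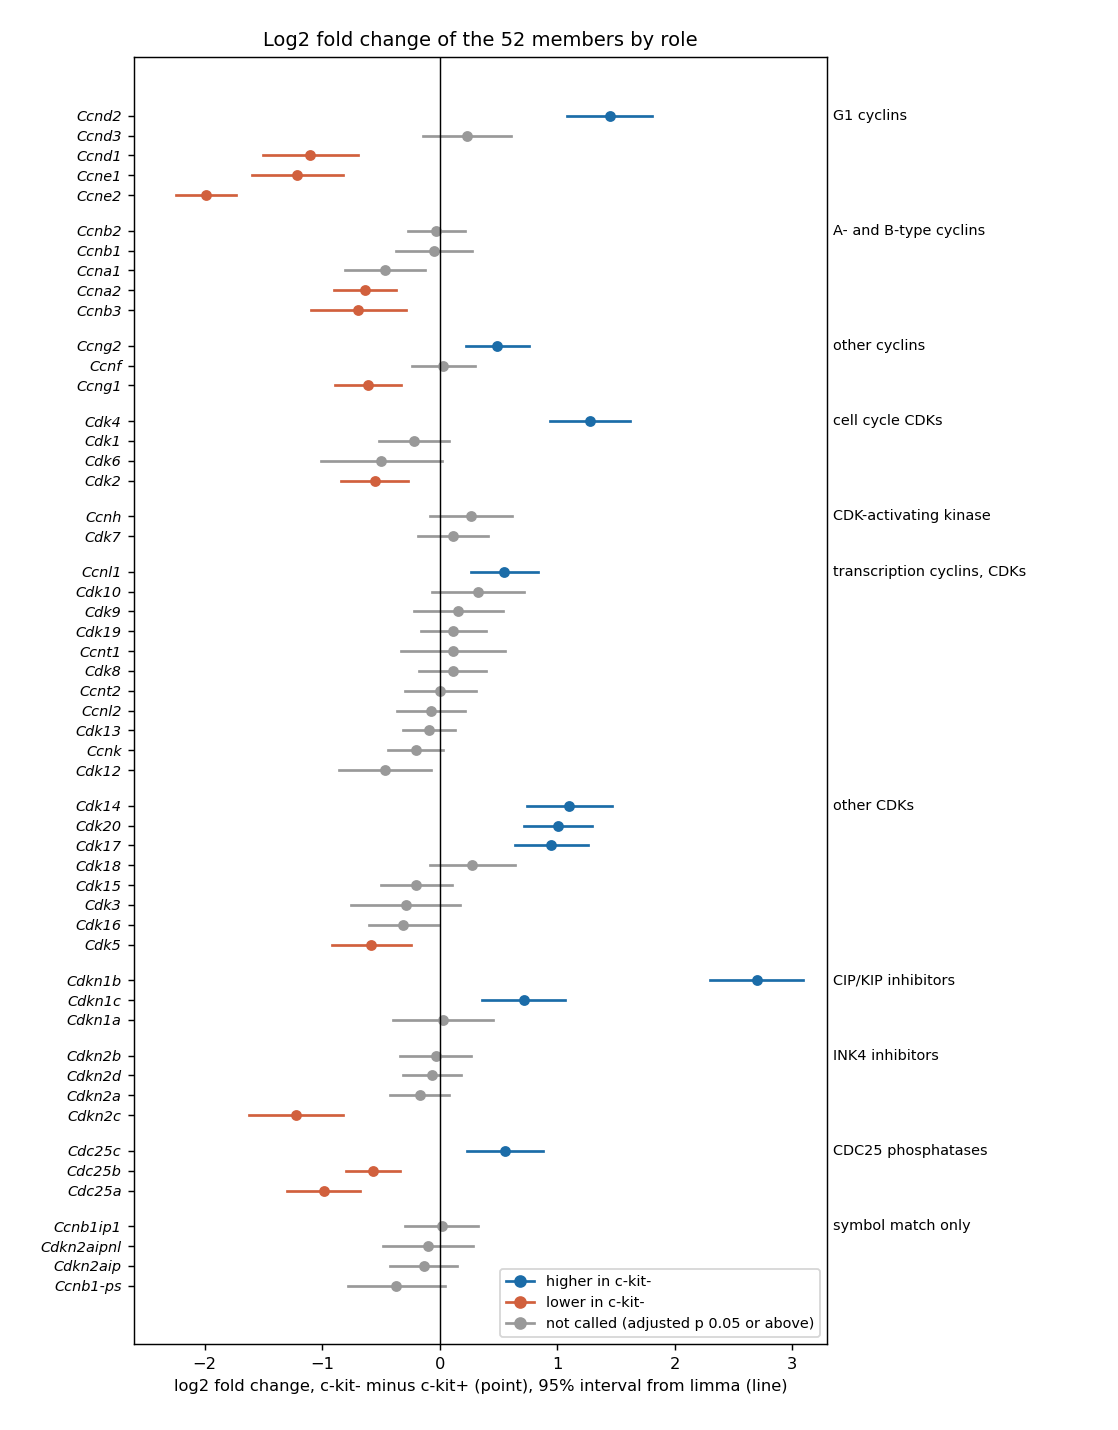
Log2 fold change of each of the 52 genes (points, c-kit- minus c-kit+) with its 95% interval from limma (lines), grouped by role. Blue genes were higher and orange genes lower in c-kit- cells (adjusted p under 0.05), grey genes were not called. Changes run in opposite directions within the G1 cyclins, the cell cycle CDKs, the inhibitors and the CDC25 genes, and the widest are Cdkn1b at 2.70 and Ccne2 at -1.99.

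Among the G1 cyclins, Ccnd2 was higher in c-kit- cells, Ccnd1, Ccne1 and Ccne2 were lower, and Ccnd3 was not called. Ccnd2 (gene ID 12444, chromosome 6), which encodes cyclin D2, was at 9.35, 9.60 and 9.53 in c-kit- cells, against 7.91, 7.85 and 8.38 in c-kit+ cells. All c-kit- arrays were above all c-kit+ arrays, by more than the spread within either group. Its log2 fold change was 1.45 (standard error 0.16), or 2.73-fold, with an adjusted p of 0.000616 from limma. Ccnd1 (12443, chromosome 7), the cyclin D1 gene, ran the other way, at 7.60, 8.21 and 8.03 in c-kit- cells and 9.05, 8.84 and 9.24 in c-kit+ cells. No array overlapped, and the difference was -1.10 on the log2 scale (standard error 0.18, adjusted p = 0.00361 from limma). By a variance estimated for each gene alone, as in the methods of the study, its adjusted p was 0.0597. The third D-type cyclin, Ccnd3, was at 6.97 ± 0.31 in c-kit- cells, against 6.74 ± 0.12 in c-kit+ cells (SD, n = 3 arrays), with overlapping groups and a 95% interval of the difference from -0.14 to 0.61.

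The E-type cyclins, which bring CDK2 into play at the end of G1, were both lower in c-kit- cells. Ccne2 (12448, chromosome 4) was at 7.50, 7.58 and 7.68 in c-kit- cells and 9.69, 9.58 and 9.46 in c-kit+ cells. Replicates of either population lay close together and far from the other population. The difference was -1.99 on the log2 scale (standard error 0.11, adjusted p = 3.57e-05 from limma), which ranks 31 among all genes with a negative change. Ccne1 (12447, chromosome 7) was at 6.98, 6.64 and 6.31 on the c-kit- arrays and 7.92, 7.74 and 7.91 on the c-kit+ arrays. Its c-kit- arrays were more spread out but all below the c-kit+ arrays, with a log2 fold change of -1.21 (standard error 0.17, adjusted p = 0.00189 from limma).

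**Figure D2:**
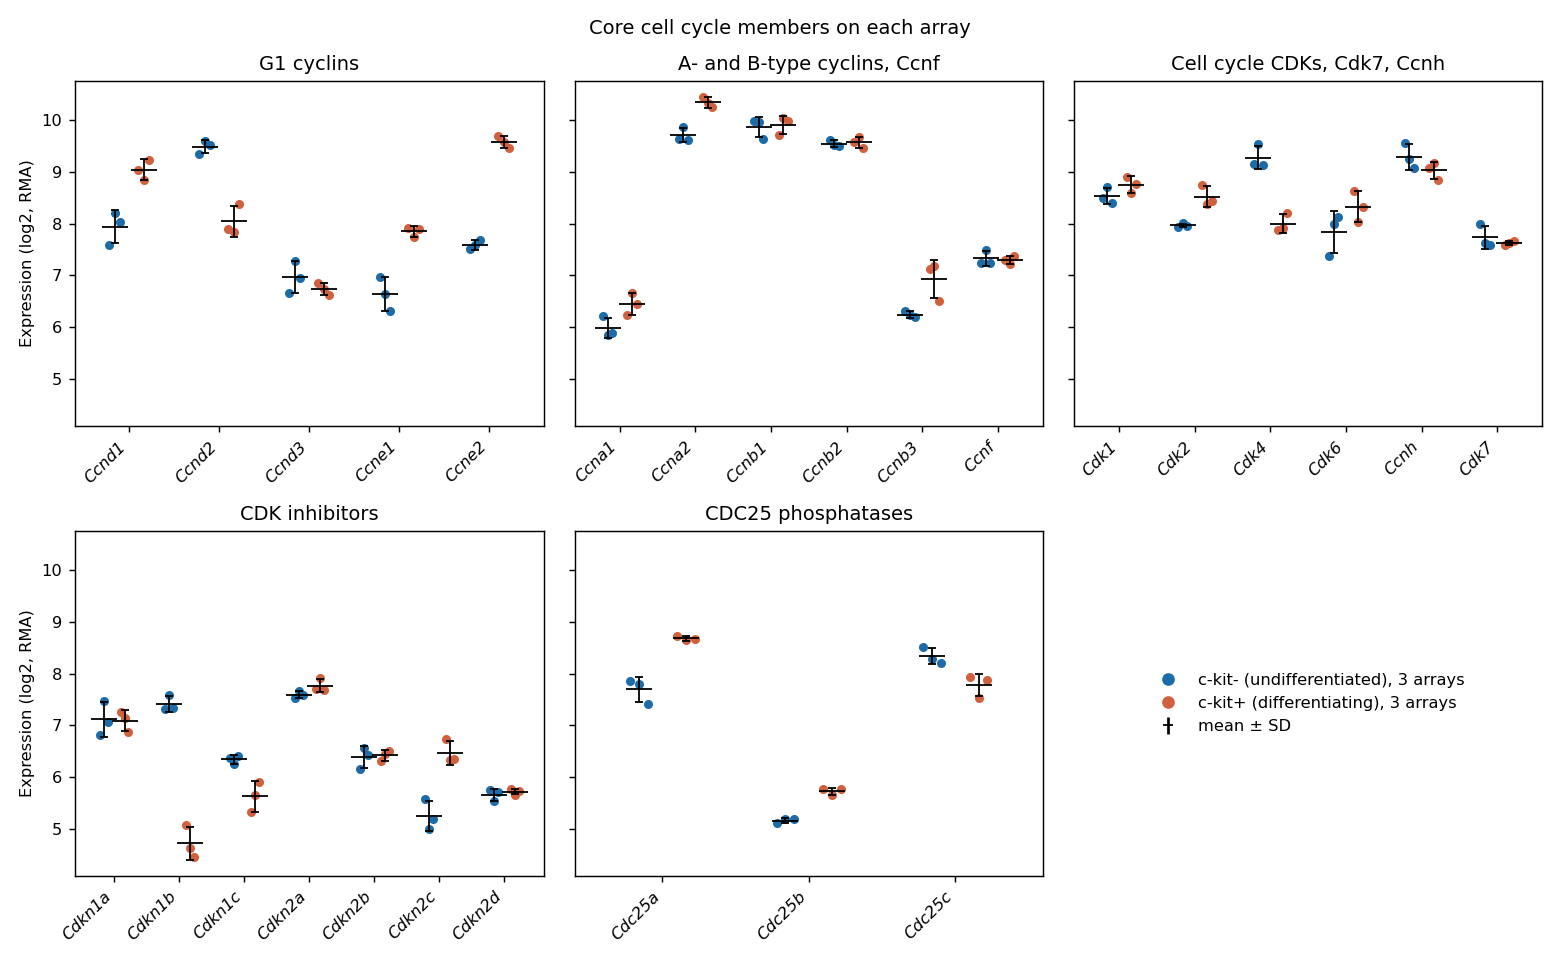
Expression on each array (points, log2 RMA values) of the core cell cycle genes, with c-kit- cells in blue left of c-kit+ cells in orange, and the mean ± SD of 3 arrays in black. Ccnd2, Cdk4, Cdkn1b, Cdkn1c and Cdc25c are higher on all c-kit- arrays. Ccnd1, Ccne1, Ccne2, Ccna1, Ccna2, Ccnb3, Cdk2, Cdkn2a, Cdkn2c, Cdc25a and Cdc25b are higher on all c-kit+ arrays, though Ccna1 and Cdkn2a were not called. Ccnb1, Ccnb2, Ccnf and Cdk1 are among the genes that overlap.

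The kinase partners of these cyclins were also split. Cdk4 (12567, chromosome 10), the partner of D-type cyclins, was at 9.16, 9.54 and 9.14 in c-kit- cells, against 7.87, 7.91 and 8.21 in c-kit+ cells. The c-kit- arrays were all higher, with a log2 fold change of 1.28 (standard error 0.15, adjusted p = 0.00082 from limma). Cdk6 (12571, chromosome 5), the other partner of D-type cyclins, was at 7.38, 8.001 and 8.13 in c-kit- cells, against 8.64, 8.04 and 8.32 in c-kit+ cells. Its groups overlapped, since 1 c-kit- array lay above the lowest c-kit+ array, and the difference of -0.50 had a 95% interval from -1.01 to 0.02. Cdk2 (12566, chromosome 10), the partner of cyclins E and A, was lower in c-kit- cells at 7.93, 8.01 and 7.97, against 8.75, 8.38 and 8.43 in c-kit+ cells. The groups did not overlap, and the log2 fold change of -0.55 had an adjusted p of 0.0175 from limma, but it was 0.0512 without c-kit+ replicate 1. Cdk1 (12534, chromosome 10), the kinase of mitosis, was at 8.54 ± 0.16 in c-kit- cells, against 8.76 ± 0.16 in c-kit+ cells (SD, n = 3), with overlapping arrays and an interval from -0.52 to 0.08. Cdk7 and its partner Ccnh, which activate other CDKs by phosphorylation and also serve transcription, differed by 0.11 and 0.26 with overlapping arrays, and neither was called.

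A-type cyclins and the mitotic cyclins did not move together. Ccna2 (12428, chromosome 3), the A-type cyclin of dividing somatic and germ cells, was at 9.64, 9.87 and 9.63 on the c-kit- arrays and 10.46, 10.33 and 10.26 on the c-kit+ arrays. All c-kit- arrays were below, by -0.64 on the log2 scale (standard error 0.12, adjusted p = 0.00644 from limma). Ccna1, the A-type cyclin of spermatocytes, was at 6.22, 5.85 and 5.88 in c-kit- cells, against 6.24, 6.65 and 6.46 in c-kit+ cells. Its groups were barely apart and it was not called (adjusted p = 0.067 from limma), though it passed among genes above the median level (0.0403) and without c-kit- replicate 1 (0.0346). Ccnb1 (268697, chromosome 13) and Ccnb2 (12442, chromosome 9), the cyclins that carry CDK1 into mitosis, overlapped between the populations. Ccnb1 was at 9.997, 9.97 and 9.64 in c-kit- cells, against 9.72, 10.05 and 9.98 in c-kit+ cells, a difference of -0.05 with a 95% interval from -0.37 to 0.28. Ccnb2 was at 9.63, 9.52 and 9.51 in c-kit- cells, against 9.57, 9.69 and 9.48 in c-kit+ cells, a difference of -0.03 with an interval from -0.27 to 0.22. The pseudogene Ccnb1-ps may share probe signal with Ccnb1, and it was at 7.05 ± 0.29 in c-kit- cells, against 7.42 ± 0.24 in c-kit+ cells (SD, n = 3), without a call.

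Ccnb3 (209091), on chromosome X, is a B-type cyclin of early meiosis. It was at 6.32, 6.23 and 6.19 in c-kit- cells and 7.12, 7.18 and 6.51 in c-kit+ cells, and c-kit+ replicate 3 lay between the c-kit- arrays and the other c-kit+ arrays. Its call as lower in c-kit- cells (-0.69, adjusted p = 0.0296 from limma) rested on 5 of the 6 arrays, all but c-kit+ replicate 3, since leaving out any of these gave an adjusted p of 0.0563 to 0.101 from limma. Without c-kit+ replicates 1 and 2 the difference was -0.27 (adjusted p = 0.499 from limma). Markers of pachytene spermatocytes, which neither Ccnb3 nor Ccna1 is among, averaged 6.48 to 6.75 in c-kit- cells, against 6.89 to 6.95 in c-kit+ cells, with 3 of 10 lower (Hspa2, Mybl1 and Spata22) and 1 higher (Piwil1) in c-kit- cells, and the part of more advanced cells in both values was not tested. Ccnf, which serves as the receptor of a ubiquitin ligase in G2, was at 7.33 ± 0.15 in c-kit- cells, against 7.30 ± 0.08 in c-kit+ cells (SD, n = 3), and the sign of its difference of 0.03 turned when arrays were scaled by quantiles once more.

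The largest difference in the list was that of a CDK inhibitor. Cdkn1b (12576, chromosome 6) encodes p27, which binds and blocks cyclin E-CDK2 and is a classic brake of G1. It was at 7.32, 7.58 and 7.34 in c-kit- cells, against 5.08, 4.62 and 4.44 in c-kit+ cells, the latter below the median of all values, 5.29. The lowest c-kit- array was well above the highest c-kit+ array. Its log2 fold change was 2.70 (standard error 0.17), or 6.50-fold, with an adjusted p of 6.19e-05 from limma, and it ranks 34 among all genes with a positive change. It was called under every alternative, with adjusted p of 0.00609 without c-kit+ replicates 1 and 2 and 0.0129 by the variance of the gene alone.

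Cdkn1c (12577, chromosome 7), the gene of the related inhibitor p57 and an imprinted gene, was also higher in c-kit- cells. It was at 6.36, 6.25 and 6.41 on the c-kit- arrays and 5.32, 5.65 and 5.90 on the c-kit+ arrays, so the c-kit- arrays were tightly grouped and all above the c-kit+ ones. The difference was 0.72 on the log2 scale (standard error 0.15, adjusted p = 0.0139 from limma), and 0.44 without c-kit+ replicates 1 and 2 (adjusted p = 0.254). With the variance of the gene alone its adjusted p was 0.0928. Cdkn1a (12575, chromosome 17), the p53 target that encodes p21, was at 6.81, 7.48 and 7.07 in c-kit- cells, against 7.26, 7.15 and 6.86 in c-kit+ cells. Its arrays were fully mixed, and the difference of 0.03 had a 95% interval from -0.39 to 0.45.

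Of the INK4 inhibitors, which block CDK4 and CDK6 alone, 1 of 4 was called. Cdkn2c (12580, chromosome 4), the p18 gene, was lower in c-kit- cells, at 5.57, 5.00 and 5.18 against 6.74, 6.32 and 6.35 in c-kit+ cells. All c-kit- arrays were below, and the difference was -1.22 on the log2 scale (standard error 0.18, adjusted p = 0.00216 from limma). The direction was opposite to that of Cdkn1b and Cdkn1c, and the c-kit- mean of Cdkn2c, 5.25, was near the median of all values, 5.29. Cdkn2a, which encodes both p16 and p19Arf but has a single value on the array, was at 7.59 ± 0.07 in c-kit- cells, against 7.76 ± 0.12 in c-kit+ cells (SD, n = 3). Its difference of -0.17 was not called (adjusted p = 0.363 from limma). Cdkn2b, the p15 gene, was at 6.39 ± 0.21 in c-kit- cells, against 6.42 ± 0.10 in c-kit+ cells (SD, n = 3), with a 95% interval of the difference from -0.34 to 0.27. Cdkn2d, the p19Ink4d gene, was at 5.66 ± 0.11 in c-kit- cells, against 5.72 ± 0.06 in c-kit+ cells (SD, n = 3), with an interval from -0.31 to 0.18.

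All 3 CDC25 phosphatases were called, and not in one direction. Cdc25a (12530, chromosome 9), which activates CDK2 at the start of S phase, was at 7.85, 7.81 and 7.42 in c-kit- cells, against 8.73, 8.65 and 8.67 in c-kit+ cells. The c-kit- arrays were all lower, by 1.98-fold (log2 fold change -0.99, standard error 0.14, adjusted p = 0.00177 from limma). Cdc25b (12531, chromosome 2), which acts on CDK1 at the start of mitosis, was at 5.10, 5.18 and 5.18 on the c-kit- arrays and 5.76, 5.64 and 5.77 on the c-kit+ arrays, with log2 fold change -0.57 (adjusted p = 0.00551 from limma). Both groups were tight and did not overlap, and the c-kit- values lay below the median of all values, 5.29. Cdc25c (12532), which also acts on CDK1, was higher in c-kit- cells, at 8.51, 8.28 and 8.21 against 7.93, 7.54 and 7.88 in c-kit+ cells. The groups did not overlap, but the call (0.55, adjusted p = 0.0292 from limma) was lost when c-kit- replicate 1 or 2 or c-kit+ replicate 2 or 3 was left out, at an adjusted p of up to 0.0863.

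Of the 8 CDKs grouped apart from those of the cell cycle, of CDK activation and of transcription, 3 were higher and 1 was lower in c-kit- cells. The other 4 were not called. Cdk14 (18647, chromosome 5), which binds cyclin Y at the membrane and takes part in WNT signaling, was at 6.64, 7.0015 and 6.4001 in c-kit- cells, against 5.50, 5.56 and 5.66 in c-kit+ cells (log2 fold change 1.10, adjusted p = 0.00205 from limma). Cdk20 (105278, chromosome 13), a kinase of primary cilia, was at 6.71, 6.96 and 7.02 in c-kit- cells, against 5.81, 6.03 and 5.82 in c-kit+ cells (1.01, adjusted p = 0.00113 from limma). Cdk17 (237459, chromosome 10), a kinase of the PCTAIRE family, was at 6.78, 6.62 and 6.74 in c-kit- cells, against 5.83, 5.51 and 5.95 in c-kit+ cells (0.95, adjusted p = 0.00203 from limma). In all 3 genes every c-kit- array lay above every c-kit+ array. The other PCTAIRE kinases were not called. Cdk16 was at 8.92 ± 0.21 in c-kit- cells, against 9.23 ± 0.05 in c-kit+ cells, and Cdk18 at 5.81 ± 0.21 in c-kit- cells, against 5.53 ± 0.24 in c-kit+ cells (SD, n = 3 each). Cdk5 (12568, chromosome 5), best known from neurons, was lower in c-kit- cells, at 7.09, 6.91 and 6.72 against 7.61, 7.25 and 7.61 in c-kit+ cells (-0.58, adjusted p = 0.0278 from limma). This call was lost when c-kit- replicate 2 or 3 or c-kit+ replicate 1 or 3 was left out, at an adjusted p of up to 0.0985. Cdk15, and Cdk3, a pseudogene in the gene table, were not called, with log2 fold changes of -0.20 and -0.29. The 4 genes that match by symbol alone had log2 fold changes from -0.37 for Ccnb1-ps to 0.02 for Ccnb1ip1, and none had an unadjusted p under 0.05.

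Of the 11 cyclins and CDKs of transcription, 1 was called. Ccnl1 (56706, chromosome 3), a cyclin of RNA splicing, was at 8.74, 8.51 and 8.66 on the c-kit- arrays and 8.27, 7.96 and 8.04 on the c-kit+ arrays, all c-kit- arrays being higher (0.55, adjusted p = 0.0173 from limma). Its call was lost when c-kit- replicate 3, c-kit+ replicate 2 or c-kit+ replicate 3 was dropped (adjusted p = 0.0528 to 0.0658). The other 10 had log2 fold changes from -0.46 for Cdk12, which phosphorylates RNA polymerase II with its partner Ccnk, to 0.33 for Cdk10. Of the G-type cyclins, Ccng1, a p53 target, was lower in c-kit- cells at 8.22, 8.23 and 7.99, against 8.91, 8.63 and 8.74 in c-kit+ cells (-0.61, adjusted p = 0.0105 from limma, and 0.0543 with its own variance alone). Ccng2, a cyclin linked to cell cycle arrest, was higher at 6.68, 6.92 and 6.95, against 6.45, 6.28 and 6.34 in c-kit+ cells (0.49, adjusted p = 0.0219 from limma), and neither gene overlapped between the populations. Leaving out replicate 2 or 3 of either population ended the call of Ccng2, at an adjusted p of up to 0.0764.

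**Figure D3:**
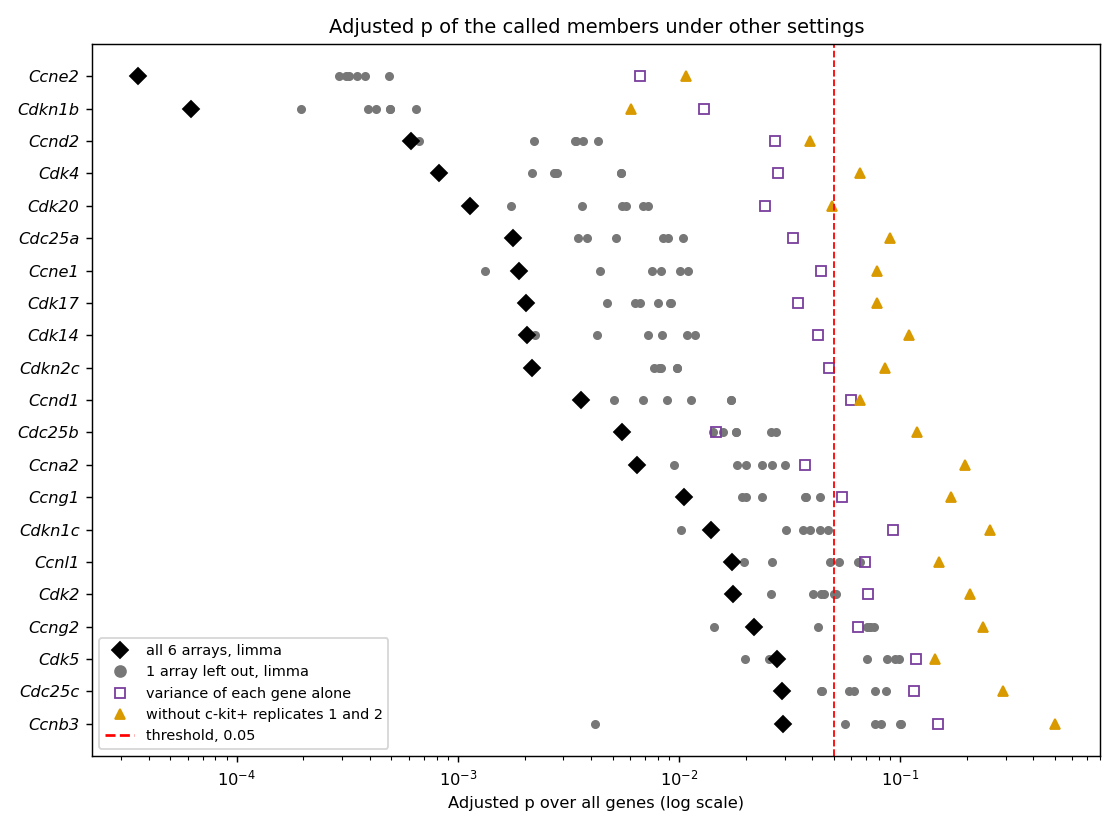
Adjusted p (log scale) of the 21 called genes with all 6 arrays (black diamonds), with 1 array left out (grey points), with the variance of each gene alone (open squares) and without c-kit+ replicates 1 and 2 (yellow triangles), with the threshold of 0.05 as a dashed line. The 15 upper genes stay left of the line whichever single array is left out, and Ccne2, Cdkn1b, Ccnd2 and Cdk20 do so in every setting drawn.

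The promoters of genes that differed and of genes that did not were read beside these values. RefSeq windows (GRCm38.p6) from 250 bases before to 50 bases after the start were at hand for 40 of the 52 genes, and Ccnd1, Ccnd2, Ccne2 and Ccna2 were not among them. Searched on both strands were the letters TTTCCCGC, TTTCGCGC, TTTGCCGC and TTTGGCGC, which E2F factors bind, TTTGAA, the cell cycle genes homology region (CHR) that repressor and activator complexes of G2 genes bind, and CCAAT, bound by NF-Y. These stretches end at the base before the start and carry the matches in capitals, a match on the other strand as its reverse complement (ATTGG for CCAAT). Some matches lie outside the printed bases. They are the CHR letters of Ccnb2, with first bases at -167 and 5, and a CCAAT of Cdk1 at -208 and of Cdkn1b at 46. They are shown because Cdc25a and Cdk2 were lower in c-kit- cells and hold E2F letters, Cdk1, Ccnb1 and Ccnb2 are the mitotic genes that were not called, and Cdkn1b had the largest change.
Cdc25a, chr9:109875429-109875578, plus strand: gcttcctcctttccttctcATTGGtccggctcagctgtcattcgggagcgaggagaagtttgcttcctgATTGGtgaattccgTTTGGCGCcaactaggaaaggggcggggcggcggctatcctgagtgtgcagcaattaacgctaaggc
Cdk2, chr10:128705052-128705201, minus strand: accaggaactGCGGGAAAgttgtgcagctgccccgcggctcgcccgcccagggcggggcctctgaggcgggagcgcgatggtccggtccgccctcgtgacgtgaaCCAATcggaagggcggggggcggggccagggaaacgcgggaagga
Cdk1, chr10:69352913-69353062, minus strand: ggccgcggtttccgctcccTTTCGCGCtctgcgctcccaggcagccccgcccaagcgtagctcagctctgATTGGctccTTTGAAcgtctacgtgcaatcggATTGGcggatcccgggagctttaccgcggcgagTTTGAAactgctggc
Ccnb1, chr13:100786487-100786596, minus strand: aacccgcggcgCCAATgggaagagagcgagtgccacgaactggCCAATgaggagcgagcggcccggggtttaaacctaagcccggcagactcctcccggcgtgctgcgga
Ccnb2, chr9:70421555-70421664, minus strand: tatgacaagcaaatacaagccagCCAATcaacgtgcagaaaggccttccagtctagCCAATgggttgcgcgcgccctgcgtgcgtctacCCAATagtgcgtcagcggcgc
Cdkn1b, chr6:134920231-134920400, plus strand: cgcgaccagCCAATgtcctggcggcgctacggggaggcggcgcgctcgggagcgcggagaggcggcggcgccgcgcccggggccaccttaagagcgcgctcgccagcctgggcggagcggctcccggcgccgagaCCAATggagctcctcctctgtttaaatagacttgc

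E2F letters were in 2 of the 7 genes with a window that were lower in c-kit- cells, those of Cdc25a (first base at -67 from the start) and Cdk2 (-140), in none of the 6 that were higher, and in 2 of the 27 not called, Cdk1 and Cdkn2a. Over all 32851 windows of this length, 2.26% held them. CHR letters were in 5 of the 27 genes not called, Ccnb2, Ccnf, Cdk1, Cdk16 and Cdkn2b, and in no called gene with a window, against 17.9% of all windows. CCAAT was in 22 of the 40 genes, against 37.4% of all windows, and Ccnb2 held it 3 times at nearly even spacing, with first bases at -87, -54 and -21. CCAAT was also in 5 of the 7 genes lower in c-kit- cells and in 1 of the 6 that were higher, Cdkn1b. These matches are descriptions of letters, with few genes in each group and no test. A gene counted as holding the letters if any of its windows did (45 windows for the 40 genes), while the shares over all windows are per window.

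**Figure D4:**
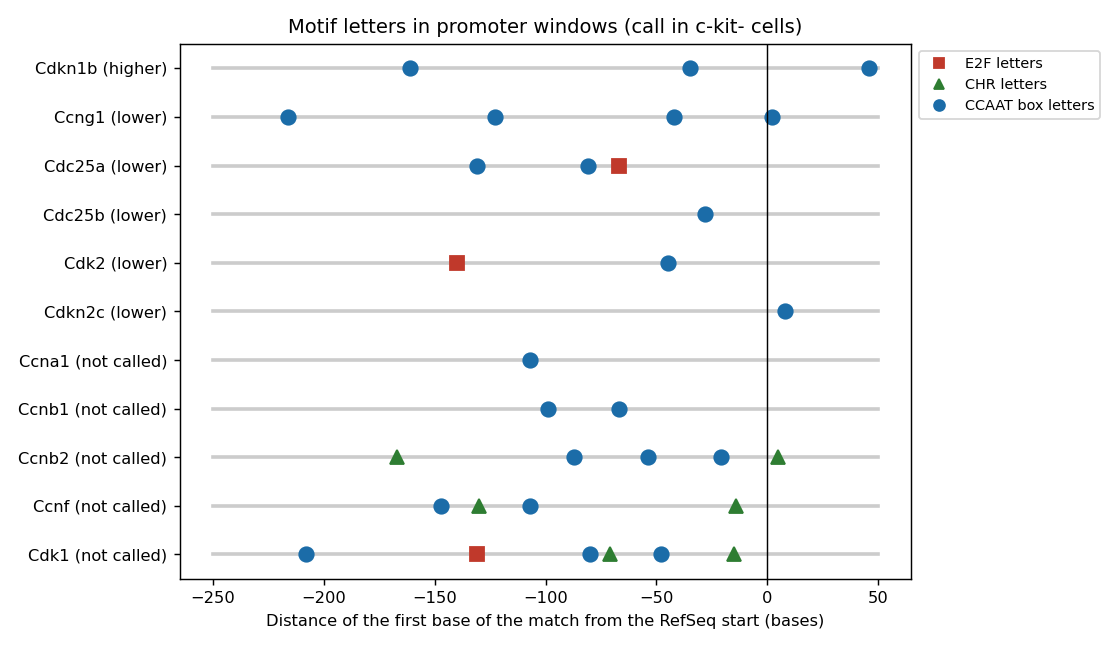
Position of E2F letters (red squares), CHR letters (green triangles) and CCAAT (blue circles) in promoter windows (grey bars), in bases from the RefSeq start, for called genes with a match and for the cyclins A1, B1, B2 and F and Cdk1. The E2F letters of Cdc25a begin at -67 and those of Cdk2 at -140, and the 3 CCAAT matches of Ccnb2 begin at -87, -54 and -21.

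Genes outside the list that are linked to cyclins and CDKs (related genes below) were read beside it. Some act on cyclins, CDKs or their inhibitors. The others were 8 further cyclins, 5 CDK-related kinases, 3 retinoblastoma proteins, 7 E2F factors and 6 genes of the B-Myb and MuvB group. Of all 49 related genes, 14 were lower, 2 were higher and 33 were not called, beside 18.1% called over all genes. The lower genes included 1 of these cyclins, 3 of the CDK-related kinases, 1 retinoblastoma protein, 4 E2F factors and 1 gene of the B-Myb and MuvB group. Among all genes above the median level, 30.4% were called. The median log2 fold change of the 49 was -0.27, beside -0.04 over all genes. Without c-kit+ replicates 1 and 2, 2 of them were still called, both as lower. The 5 with the largest changes among the lower genes were Fbxo5 (-1.29), which restrains the anaphase-promoting complex, Spdya (-1.27), a CDK2 activator that is not a cyclin and acts in meiosis, E2f2 (-1.09), Rbl1 (-1.03), the p107 relative of the retinoblastoma protein, and E2f7 (-0.95), a repressing E2F factor. Fbxo5 was at 7.79 ± 0.17 in c-kit- cells, against 9.08 ± 0.04 in c-kit+ cells, and Spdya at 5.60 ± 0.11 in c-kit- cells, against 6.87 ± 0.26 in c-kit+ cells (SD, n = 3 each), with adjusted p = 0.00025 and 0.000792 from limma. Of 7 E2F factors, 4 were lower, E2f2, E2f4, E2f7 and E2f8, and none was higher, while Rb1 itself, at 9.86 ± 0.20 in c-kit- cells and 9.59 ± 0.18 in c-kit+ cells (SD, n = 3), was not called. The 2 higher genes were Ccnjl (1.5004), a cyclin J relative, and Cdkl3 (0.62), a CDK-like kinase. The kinases Wee1, Wee2 and Pkmyt1, of which Wee1 and Pkmyt1 silence CDK1 until mitosis and Wee2 acts in oocytes, were not called, with log2 fold changes of -0.33, 0.24 and 0.16. Skp2, the ubiquitin ligase subunit that marks p27 for breakdown, was at 8.72 ± 0.07 in c-kit- cells, against 8.47 ± 0.12 in c-kit+ cells (SD, n = 3; adjusted p = 0.172 from limma).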

How the data were processed

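RNA of 3 c-kit- and 3 c-kit+ samples was measured on Affymetrix arrays. The deposited log2 values, 1 per Entrez gene ID and array, came from the authors' RMA (robust multi-array average) with Bioconductor. The RMA version and the probe set definition are not given in the sources used here. RMA equalizes the distribution of signals between arrays, so a shift shared by most genes is not seen. Rows were named by gene ID from a RefSeq gene table of GRCm38.p6 (24481 genes) and the platform's table (93), and 399 stayed unnamed.

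All 24973 genes were tested without a filter by limma 3.58.1 in R 4.3.3 (lmFit, eBayes) with the population as the only term. The methods name an ANOVA per gene, which was run as an alternative. The procedure was tested on simulated data. The other alternatives were quantile normalization once more, equal array medians, a filter on low values, a mean-dependent prior variance, the replicate number as a block, each array left out, c-kit+ replicates 1 and 2 left out, and the study's thresholds (fold change over 1.5, unadjusted p under 0.02). Named with values were the called genes and 27 core cell cycle genes, other genes as ranges. Of the 49 related genes, the 5 largest calls in each direction were named. Wee1, Wee2, Pkmyt1, Rb1, Skp2, E2f4 and E2f8 were named outside this rule, after their values were seen, as were genes that mark a range. The genes, lists and tests were chosen with earlier results of these data known. The precision is limited by the 3 arrays of each population, and p-values rest on the spread between arrays of a population. That spread joins differences between mice with those of sorting, amplification and hybridization.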

Additional observations from a re-analysis of the deposited data

How the results depend on the processing

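All 21 called genes kept their direction under the 14 alternatives, and 15 stayed called whichever single array was left out. The counts of 10 higher and 11 lower genes became 6 and 6 by the per-gene ANOVA, and 3 and 1 without c-kit+ replicates 1 and 2, when limma takes the lone c-kit+ array to vary like the others. The ANOVA ended the calls of Ccnd1, Ccnb3, Ccng1, Ccng2, Cdk2, Ccnl1, Cdk5, Cdkn1c and Cdc25c. With 1 array left out the counts were 7 to 10 and 8 to 11. The 2 higher and 14 lower CDK regulators became 1 higher and 10 lower by the ANOVA, and 0 higher (3 at an unadjusted p under 0.05) and 2 lower without both replicates. Over all genes 2331 were higher and 2196 lower, against 1307 and 1205 by the ANOVA, 527 and 239 without both replicates, and 1451 lower at the study's thresholds. The counts without both replicates rest on fewer arrays, and the cause of the other changes was not tested.

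Among the 34 genes named with values, signs turned only in genes not called. By quantile normalization once more the log2 fold change was -0.0052 for Ccnf and -0.021 for Cdkn1a. Without c-kit+ replicates 1 and 2 it was 0.076 for Ccnb2 and -0.047 for Ccnf, and for Ccnt1, which is not among the 34, -0.05 beside 0.11 with all arrays. With 1 array left out it ran from -0.147 to 0.065 for Ccnb1, from -0.079 to 0.027 for Ccnb2, from -0.055 to 0.075 for Ccnf, from -0.013 to 0.187 for Cdk7, from -0.15 to 0.187 for Cdkn1a, from -0.126 to 0.077 for Cdkn2b and from -0.105 to 0.00095 for Cdkn2d.

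The labels give the populations the same replicate numbers without saying what a number marks. Deviations of same-numbered arrays correlated by 0.0999, 0.0973 and 0.137, and each array correlated best with its own number, a hint from the data only. With the replicate block 10 genes were higher and 11 lower, 2 and 14 of the related genes, and 2350 and 2163 of all genes. No named call changed. The number of arrays limits what can be seen in genes not called, whose 95% intervals were as wide as -1.01 to 0.02 for Cdk6.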
